A study of Mus musculus with 5 samples.

Results

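The heat shock genes described here are 10 genes chosen by name, Hspa1a, Hspa1b, Hsph1, Dnajb1, Hspa8, Hsp90aa1, Hspb1, Bag3, Hspe1 and Hspd1. All 10 were found by mouse symbol among the 55573 genes of the count tables, and all 10 had enough counts to be tested. They were grouped as cytosolic heat shock genes, but Hspe1 (HSP10) and Hspd1 (HSP60) encode the chaperonin of the mitochondrial matrix, so 8 of the 10 encode proteins of the cytosol and nucleus. The RNA came from the right hemisphere of female C57BL/6 mice, 7 to 8 weeks old at grafting, that carried GL261 glioma in the right caudate nucleus-putamen. GL261 is a mouse glioma cell line of the same strain, here transduced with luciferase and mKate2, and every mouse of both groups carried it. The UMBO group received ultrasound-mediated blood-brain barrier opening, in which low-intensity pulsed ultrasound makes injected microbubbles oscillate in the vessels of the brain. The vehicle group received a dilution buffer, and whether these mice also had microbubbles is not stated for this experiment. Warm saline before anesthesia is described for all mice of a treatment protocol. Treatments were given on days 21 and 24, and the tissue was taken 24 h after the last one. Libraries of 3 vehicle mice and 2 UMBO mice were analysed. Each is bulk RNA of tumor, brain, vessel and immune cells together, so a change in the number of cells of a type and a change in RNA per cell cannot be told apart.

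Heat shock proteins are chaperones that keep other proteins folded, refold those that have been damaged and pass on those that cannot be rescued. HSP70 proteins bind unfolded stretches in a cycle driven by ATP, J-domain proteins such as the product of Dnajb1 deliver clients to them, and nucleotide exchange factors such as the products of Hsph1 and Bag3 release them. Part of the family, such as Hspa8, is made at all times, while the inducible HSP70 genes are nearly silent until heat, oxidation or unfolded protein frees the transcription factor HSF1 to bind heat shock elements in their promoters.

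Libraries held 59736771 to 86164159 counts, and the rarest of the 10 genes, Hspb1, had at least 205 reads in each. Neuronal, glial and striatal markers were abundant in all 5 libraries, and no gene of any marker list was at 0 in any of them. UMBO replicate 2 stood apart from the other 4 libraries: on the first principal component, which held 78.7% of the variance, it lay at 133.7 and the others between -68.4 and 17. Mitochondrially encoded genes took 3.36% of its counts, against 5.29% to 6.61% in the others. The fold changes of the heat shock genes and the list medians are therefore also given without it.

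Levels are given as CPM, the counts scaled to equal library totals by edgeR's TMM method, and the groups were compared with edgeR's quasi-likelihood test over the 23592 genes that passed its filter on low counts. All 10 heat shock genes had a positive log2 fold change between UMBO and vehicle, where 50.9% of all tested genes did. Their median log2 fold change was 0.99, against 0.01 over all genes. In 10 of 10 genes UMBO replicate 2 was the highest of the 5 libraries, which held for 40.4% of all genes. UMBO replicate 1 lay above every vehicle library in 3 of the 10, Hspa1b, Hsph1 and Hspb1, against 18.6% of all genes, and for the same 3 both UMBO libraries were above every vehicle library, against 11.5%. No heat shock gene had both UMBO libraries below every vehicle library, against 11.4% of all genes. In edgeR's quasi-likelihood test 5 of the 10 were higher at an unadjusted p under 0.05, against 5.3% of all genes, and 0 were lower, against 2.06%. After Benjamini-Hochberg adjustment over all genes edgeR called 0 of the 10 and 0% of all genes, with a smallest adjusted p of 0.497. DESeq2's Wald test called 39 genes at an adjusted p under 0.05, of which Hspa1b was the single heat shock gene (log2 fold change 3.19, adjusted p = 0.0407), against 0.112% of all genes it called higher.

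The high values of the group came from a single mouse. Relative to the mean of the vehicle libraries on the log2 scale, the median over the 10 genes was 0.03, 0.01 and -0.06 in vehicle replicates 1 to 3. For UMBO replicate 1 it was 0.14, and for UMBO replicate 2 it reached 1.53. The 10 genes together took 0.258% to 0.277% of all counts with vehicle, 0.297% of those of UMBO replicate 1 and 0.465% of those of UMBO replicate 2.

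**Figure D1:**
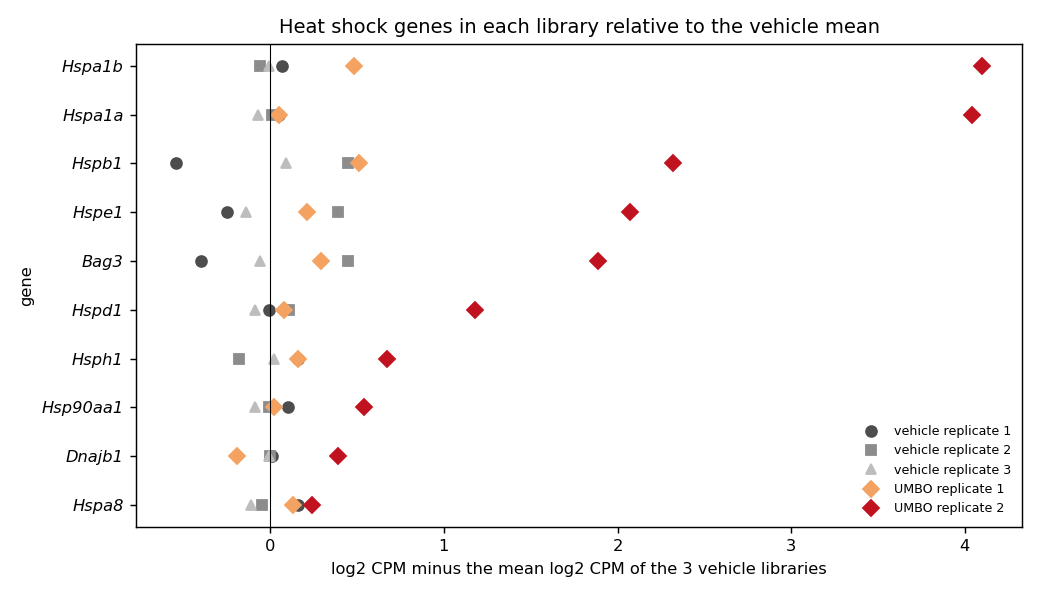
Log2 CPM of each heat shock gene in each of the 5 libraries, minus the mean log2 CPM of the 3 vehicle libraries (horizontal axis), with genes ordered by their value in UMBO replicate 2. The red diamonds of UMBO replicate 2 lie right of every other point in all 10 rows, from 0.24 for Hspa8 to 4.10 for Hspa1b, while UMBO replicate 1 lies between -0.19 and 0.51.

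Hspa1a and Hspa1b encode the inducible HSP70 and lie side by side in the major histocompatibility region of chromosome 17, each as 1 exon on the minus strand (GRCm38, 34969190 to 34972156 and 34956436 to 34959238). Hspa1a was at 5.19, 5.04 and 4.77 CPM in the vehicle libraries, at 5.17 CPM in UMBO replicate 1 and at 82.7 CPM in UMBO replicate 2. Hspa1b was at 4.99, 4.54 and 4.71 CPM in the vehicle libraries, at 6.63 CPM in UMBO replicate 1 and at 81.9 CPM in UMBO replicate 2. Both genes were thus at a low and even level in 4 libraries, where the vehicle values differed by at most 1.10-fold, and high in the fifth. For Hspa1a UMBO replicate 1 lay inside the vehicle range, whereas for Hspa1b it lay above it, at 1.40 times the vehicle mean. In UMBO replicate 2 the levels were 16.5 and 17.3 times the vehicle mean, and 0.208% and 0.187% of all tested genes had a log2 ratio as high in that library.

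The group means of Hspa1a were 5.00 ± 0.212 CPM (SD, n = 3) with vehicle and 44.0 ± 54.9 CPM (SD, n = 2) with UMBO, so that the SD of the UMBO group was larger than its mean. In edgeR's quasi-likelihood test the log2 fold change of Hspa1a was 3.13 (SE 0.969), with an unadjusted p of 0.0179 and an adjusted p of 0.497. The means of Hspa1b were 4.75 ± 0.226 CPM (SD, n = 3) and 44.3 ± 53.2 CPM (SD, n = 2). Its log2 fold change in edgeR's test was 3.22 (SE 0.899), with an unadjusted p of 0.0117 and an adjusted p of 0.497. Neither difference passed the adjusted threshold.

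The coding sequences of the pair differed at 11 of 1929 aligned positions, an identity of 99.43%, against 73.93% between Hspa1a and Hspa8. Of the windows of 101 bases in the transcripts of Hspa1a, 46.88% also occur in Hspa1b. Reads from these windows cannot be assigned to either gene by sequence, and how they were counted is not stated. Hspa1a took 50.99%, 52.63% and 50.31% of the counts of the pair in the vehicle libraries and 50.25% in UMBO replicate 2 (95% Wilson interval 49.31% to 51.19%). In UMBO replicate 1 its share was 43.81% (40.77% to 46.88%), below the intervals of vehicle replicates 1 and 2 and of UMBO replicate 2 and touching that of vehicle replicate 3 (46.86% to 53.76%). These intervals cover counting error only. Summed, the pair was at 10.2, 9.58 and 9.49 CPM with vehicle, at 11.8 CPM in UMBO replicate 1 and at 164.7 CPM in UMBO replicate 2. Treated as a single gene the pair had a log2 fold change of 3.18 in edgeR's test, with an adjusted p of 0.497. Hspa1a also shares 564 exonic bases with Gm20481 on the opposite strand, which had 3 to 13 reads per library.

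The promoters of the pair are shown because both genes stood high in the same library, and because both hold a match to part of the heat shock element. Such an element is built of inverted repeats of the triplet GAA. The pairs GAANNTTC and TTCNNGAA, which are the same on both strands, were searched in the RefSeq windows of 250 bases before and 50 bases after each start site (GRCm38.p6). At least 1 such pair occurred in 15.1% of all 32851 windows, and a run of 3 triplets (GAANNTTCNNGAA or TTCNNGAANNTTC, either strand) in 0.603%. The 120 bases before each start site follow, 5′ to 3′ on the strand of the gene, with the pair of triplets in capitals (Hspa1a chr17:34972157-34972276, Hspa1b chr17:34959239-34959358, both on the minus strand).
Hspa1a: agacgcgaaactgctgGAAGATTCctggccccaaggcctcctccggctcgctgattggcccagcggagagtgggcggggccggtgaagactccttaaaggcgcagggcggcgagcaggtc
Hspa1b: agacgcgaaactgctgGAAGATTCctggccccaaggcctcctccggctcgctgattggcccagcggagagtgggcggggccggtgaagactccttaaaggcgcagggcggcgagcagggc
The element begins 104 bases before the start in both. The printed stretches differ at 1 of 120 bases, and the whole windows at 4 of 300. Of the 10 genes 8 had a window in the RefSeq table, Hspa8 and Hsp90aa1 being the ones without. A pair of triplets was present in 7 of the 8, the exception being Dnajb1, and a run of 3 in 3 of them, Hsph1, Hspe1 and Hspd1. The pair of Bag3 and the run of Hsph1 lie after the start site, and Hspe1 and Hspd1 hold the same run. These counts are per gene, with up to 2 windows for a gene, whereas the shares above are per window. These are matches of letters and say nothing of whether a factor was bound in these brains.

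Hspa8 encodes the constitutive HSP70 (HSC70), which uncoats clathrin vesicles and folds new proteins in every cell. It was at 1335, 1152 and 1104 CPM in the vehicle libraries, at 1302 CPM in UMBO replicate 1 and at 1411 CPM in UMBO replicate 2. The groups overlapped, since UMBO replicate 1 was below vehicle replicate 1, and the highest library exceeded the vehicle mean 1.18-fold. Its means were 1197 ± 122 CPM (SD, n = 3) and 1356 ± 76.7 CPM (SD, n = 2). The log2 fold change from edgeR's quasi-likelihood test was 0.18 (SE 0.255), with an adjusted p of 0.705. Per kb of exon, the inducible pair stood at 0.0114 to 0.0128 of the level of Hspa8 with vehicle, at 0.0136 of it for UMBO replicate 1 and at 0.174 of it for UMBO replicate 2. So the ratio of inducible to constitutive HSP70 RNA was high in UMBO replicate 2 alone among the 5 libraries. Levels per kb use the full exon length, and how reads from shared windows were counted is not stated, which limits ratios between genes. Of the transcript windows of Hspa8, 63.25% also occur in other genes, mostly processed pseudogenes. The largest of these by count, Gm15459, was at 1.18% to 2.06% of the CPM of Hspa8 in the vehicle libraries and UMBO replicate 1 and at 5.00% in UMBO replicate 2.

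The partners of HSP70 among the 10 genes were Hsph1, Bag3 and Dnajb1, and their values spread widely. Hsph1 encodes HSP110, a nucleotide exchange factor that helps HSP70 to dissolve aggregates, and it was at 343.1, 271.8 and 313.1 CPM with vehicle, at 344.8 CPM in UMBO replicate 1 and at 490.6 CPM in UMBO replicate 2. The groups did not overlap, but the lower UMBO library was above the highest vehicle library by 344.8 against 343.1 CPM. Its log2 fold change was 0.43 (SE 0.251), with an unadjusted p of 0.135 and a Benjamini-Hochberg p of 0.497 by edgeR's quasi-likelihood test. Bag3, which links HSP70 to the autophagy of aggregated protein, was at 9.52, 17.18 and 12.02 CPM with vehicle, at 15.3 CPM in UMBO replicate 1 and at 46.4 CPM in UMBO replicate 2. Here the vehicle libraries themselves differed 1.80-fold, UMBO replicate 1 lay among them, and UMBO replicate 2 was at 3.59 times their mean. The log2 fold change of Bag3 was 1.26 (SE 0.490), with an unadjusted p of 0.0426 and an adjusted p of 0.497 in the same test. Dnajb1 encodes HSP40, the main J-domain partner of inducible HSP70, and it was at 51.6, 51.2 and 51.0 CPM with vehicle, at 44.8 CPM in UMBO replicate 1 and at 67.1 CPM in UMBO replicate 2. The UMBO libraries thus lay on either side of a very even vehicle group, at 0.875 and 1.31 times its mean. Its log2 fold change was 0.13 (SE 0.210), with an adjusted p of 0.748 in edgeR's test, and it turned to -0.19 without UMBO replicate 2. None of the 3 genes shared a window of 101 bases with another gene.

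Hsp90aa1 encodes the inducible form of cytosolic HSP90, which holds kinases and steroid receptors ready for activation. It was at 1034, 962.0 and 909.5 CPM with vehicle, at 977.5 CPM in UMBO replicate 1 and at 1402 CPM in UMBO replicate 2. UMBO replicate 1 lay within the vehicle range and UMBO replicate 2 at 1.45 times its mean. The log2 fold change was 0.30 (SE 0.275), adjusted p = 0.577, by edgeR's quasi-likelihood test. Per kb of exon the ratio of Hsp90aa1 to its constitutive counterpart Hsp90ab1 was 0.500, 0.454 and 0.530 with vehicle, 0.480 for UMBO replicate 1 and 0.439 for UMBO replicate 2. In the library where both were high, the inducible form therefore had no larger share than elsewhere. Of its transcript windows 47.28% occur in other genes, foremost the pseudogene Gm12346, which was at 0.961% to 1.45% of its CPM in every library.

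Hspb1 encodes HSP25, the mouse counterpart of human HSP27, a small chaperone that holds unfolded protein and is known in brain from reactive glia and vessels. It was at 2.74, 5.49 and 4.25 CPM with vehicle, at 5.71 CPM in UMBO replicate 1 and at 20.03 CPM in UMBO replicate 2. Both UMBO libraries lay above the vehicle libraries, the first of them by little, and the vehicle values differed 2.00-fold among themselves. The means were 4.16 ± 1.38 CPM (SD, n = 3) and 12.9 ± 10.1 CPM (SD, n = 2). In edgeR's quasi-likelihood test the log2 fold change was 1.63 (SE 0.564), with an unadjusted p of 0.0280 and an adjusted p of 0.497. The pseudogene Hsp25-ps1, which holds 42.53% of its transcript windows, was at 1.43% to 4.17% of its CPM. Its promoter is shown because it holds a pair of triplets at 2 places, which begin 117 and 97 bases before the start (chr5:135887799-135887918, plus strand, 120 bases before the start, pairs in capitals).
Hspb1: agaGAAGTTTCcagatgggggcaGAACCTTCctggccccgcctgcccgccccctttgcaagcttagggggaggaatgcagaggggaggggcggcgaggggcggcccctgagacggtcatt

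Hspe1 and Hspd1 encode the lid and the barrel of the mitochondrial chaperonin and are read away from each other from neighboring starts on chromosome 1 (GRCm38, 55088132 to 55091307 on the plus strand and 55077835 to 55088243 on the minus strand). Hspe1 was at 47.4, 74.1 and 51.4 CPM with vehicle, at 65.4 CPM in UMBO replicate 1 and at 236.7 CPM in UMBO replicate 2. Hspd1 was at 177.3, 192.7 and 167.6 CPM with vehicle, at 189.4 CPM in UMBO replicate 1 and at 405.6 CPM in UMBO replicate 2. For both, UMBO replicate 1 lay within the vehicle range and below vehicle replicate 2, while UMBO replicate 2 was at 4.11 and 2.26 times the vehicle mean. The log2 fold change of Hspe1 was 1.39 (SE 0.525), with an unadjusted p of 0.0383 and a Benjamini-Hochberg p of 0.497 by edgeR's quasi-likelihood test. That of Hspd1 was 0.73 (SE 0.339), with an unadjusted p of 0.0747 and the same adjusted p of 0.497. Per kb of exon the ratio of Hspe1 to Hspd1 was 0.479, 0.690 and 0.549 with vehicle, 0.619 for UMBO replicate 1 and 1.05 for UMBO replicate 2. The lid was thus the scarcer RNA of the pair in 4 libraries and level with the barrel in the fifth.

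The start sites of the chaperonin genes lie close together, and the run of triplets found between them is shown for this reason. The start of Hspe1 is 95 and 216 bases from the 2 start sites that RefSeq gives for Hspd1. Between the start of Hspe1 and the farther of these lies a run of 4 triplets in 18 bases (chr1:55088059-55088076, here on the strand of Hspe1, GRCm38.p6), which covers positions -89 to -72 from the start of Hspe1.
Element between Hspe1 and Hspd1: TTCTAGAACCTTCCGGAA
On the strand of Hspd1 the same bases lie at -144 to -127 from its start at 55087932, so the window of Hspe1 and that of this start hold 1 and the same run. The window of the other start of Hspd1, at 55088243, holds 0 pairs of triplets, and from there the run lies downstream. The genes also share 112 exonic bases on opposite strands, 7.60% of the exons of Hspe1 and 4.24% of those of Hspd1. The strand setting of the counting is not given in the sources used here, so reads from these bases cannot be assigned with certainty.

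**Figure D2:**
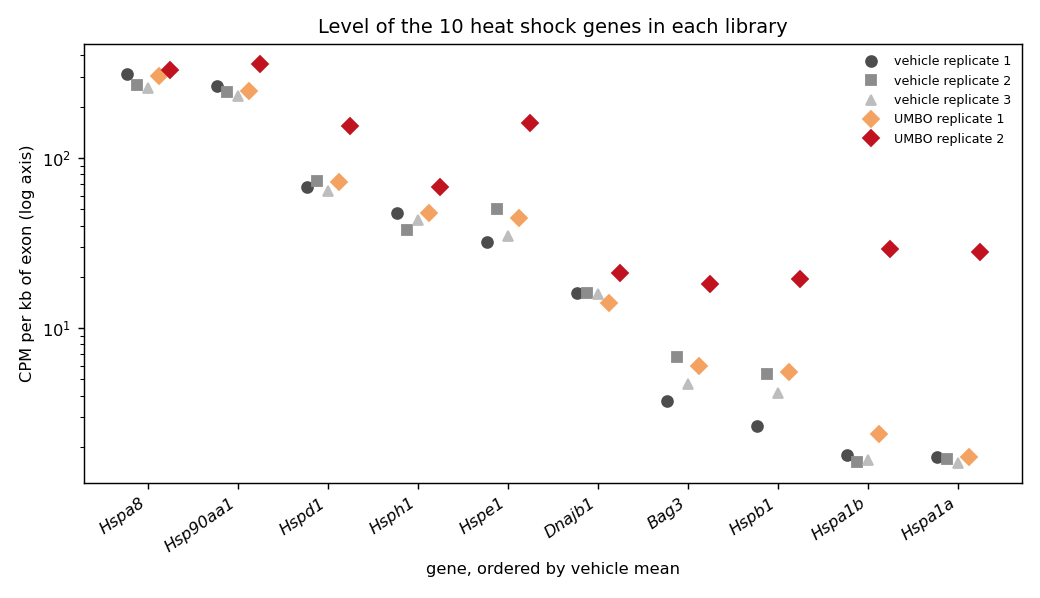
CPM per kb of exon (vertical axis, log scale) of the 10 heat shock genes in each library, ordered by the mean of the 3 vehicle libraries. Vehicle levels run from 278.3 for Hspa8 to 1.69 for Hspa1a, and the red diamond of UMBO replicate 2 is the highest point of every gene, farthest from the rest for Hspa1a and Hspa1b.

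Per kb of exon the order of the vehicle means was Hspa8 (278.3 CPM per kb), Hsp90aa1 (246.4), Hspd1 (67.8), Hsph1 (42.6), Hspe1 (39.1), Dnajb1 (16.0), Bag3 (5.04), Hspb1 (4.04), Hspa1b (1.693) and Hspa1a (1.686). The ranges of the vehicle libraries overlapped for the neighbors Hspa8 and Hsp90aa1, Hsph1 and Hspe1, Bag3 and Hspb1, and Hspa1b and Hspa1a. Within every vehicle library Hspa8 was nevertheless above Hsp90aa1, and Bag3 above Hspb1. The order of Hsph1 and Hspe1, and that of Hspa1b and Hspa1a, changed between vehicle mice. In UMBO replicate 2 the order was Hsp90aa1 (356.6 CPM per kb), Hspa8 (327.9), Hspe1 (160.6), Hspd1 (153.5), Hsph1 (67.5), Hspa1b (29.2), Hspa1a (27.9), Dnajb1 (20.9), Hspb1 (19.4) and Bag3 (18.1). The inducible HSP70 genes, last in the vehicle order, thus stood above Dnajb1, Hspb1 and Bag3 in that library. The fold over the vehicle mean in UMBO replicate 2 was 1.18 to 1.59 for the cytosolic genes with the 3 highest vehicle levels, Hspa8, Hsp90aa1 and Hsph1, and 3.59 to 17.3 for the 4 genes with the lowest. The genes between did not follow their vehicle level, with 2.26 for Hspd1, 4.11 for Hspe1 and 1.31 for Dnajb1.

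Leaving out either UMBO library gave very different results. Without UMBO replicate 2 the log2 fold changes from edgeR's quasi-likelihood test lay between -0.19 for Dnajb1 and 0.48 for Hspa1b, with a median of 0.14, and 0 of the 10 genes had an unadjusted p under 0.05, against 1.15% of all genes higher and 0.71% lower. Without UMBO replicate 1 they lay between 0.21 for Hspa8 and 4.08 for Hspa1b, with a median of 1.48. In that fit, which rests on a single UMBO library that is assumed to vary like the vehicle group, 6 of the 10 genes had an adjusted p under 0.05, against 10.1% of all genes higher and 8.21% lower. These 6 were Hspa1a and Hspa1b (adjusted p = 0.00158 from edgeR for both) and Hspb1, Bag3, Hspe1 and Hspd1 (adjusted p = 0.0390 for each). It compares that library with the vehicle group, not UMBO with vehicle. Without vehicle replicate 1 or without vehicle replicate 3 the number of the 10 higher at an unadjusted p under 0.05 was 1 in each fit, Hspa1b, against 0.838% and 0.945% of all genes. Without vehicle replicate 2 it was 5, against 9.36%.

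**Figure D3:**
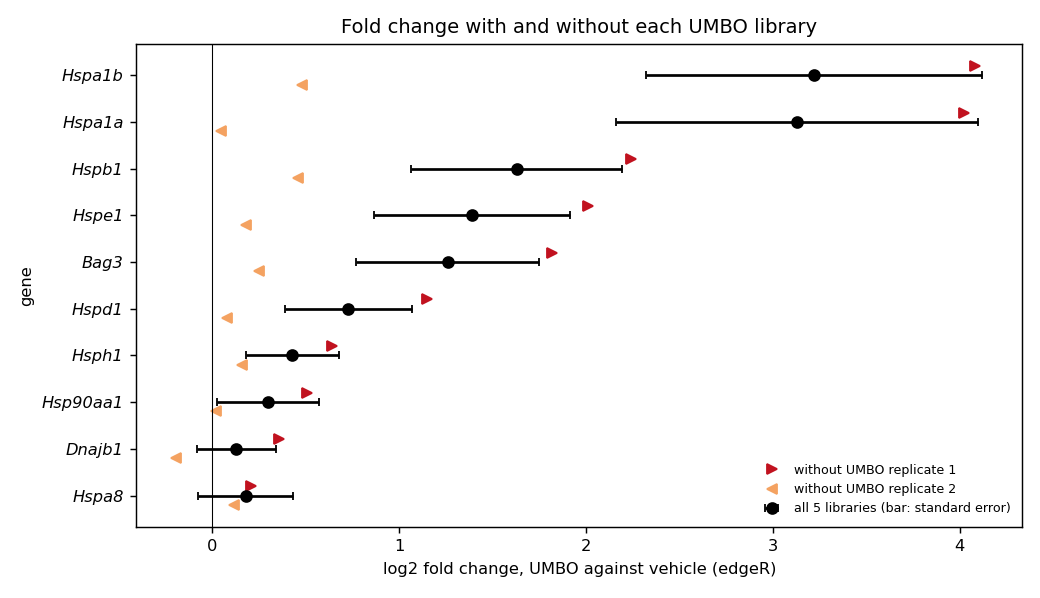
Log2 fold change between UMBO and vehicle for each heat shock gene from edgeR with all 5 libraries (black, bars give the standard error) and with either UMBO library left out (triangles). Without UMBO replicate 2 the values lie between -0.19 and 0.48, and without UMBO replicate 1 between 0.21 and 4.08.

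The rest of the chaperone system was read from 9 lists with 78 genes, of which 77 could be tested. Among these 53 had a positive log2 fold change, where 50.9% of all tested genes did, and 24 a negative one, with a median of 0.16. In edgeR's quasi-likelihood test 4 were higher at an unadjusted p under 0.05, against 5.3% of all genes, 0 were lower, against 2.06%, and 0 passed the adjusted threshold. UMBO replicate 2 was the highest of the 5 libraries in 46 of the 77, against 40.4% of all genes, and UMBO replicate 1 lay above every vehicle library in 13, against 18.6%. Both UMBO libraries were above every vehicle library in 7 of the 77, against 11.5% of all genes, and below in 3, against 11.4%. Of the 77 genes, 18 lay below every vehicle library in UMBO replicate 2, against 41.6% of all genes. Without that library the median of the 77 was 0.05.

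By role, the lists nearest to inducible HSP70 showed little. The median log2 fold change was -0.12 over 4 heat shock factors, -0.01 over 8 other cytosolic HSP70 and HSP110 genes, -0.11 over 10 J-domain genes and 0.06 over 9 further cochaperones of HSP70. Without UMBO replicate 2 these medians were -0.24, 0.09, -0.06 and 0.05. Hsf4, a heat shock factor best known from the lens, was at 15.3, 16.7 and 17.7 CPM with vehicle and at 12.3 and 14.1 CPM with UMBO, so both UMBO libraries were below every vehicle library (log2 fold change -0.32, adjusted p = 0.497 from edgeR). Hsf5 had a log2 fold change of -0.29 at under 1 CPM in every library. Hspa4l, a member of the HSP110 family, was at 223.3, 144.3 and 221.8 CPM with vehicle and at 163.7 and 82.6 CPM with UMBO. The J-domain gene Dnajc2, which works at the ribosome, was at 42.8, 53.5 and 38.3 CPM with vehicle and at 43.0 and 112.6 CPM with UMBO. Dnajb4, close in sequence to Dnajb1, went the other way in UMBO replicate 2, at 45.0 CPM against 63.1 to 79.5 CPM with vehicle. Hspa12b, a distant HSP70 of endothelial cells, was at 6.10 to 8.61 CPM with vehicle and at 8.99 and 15.5 CPM with UMBO, and the HSP70 cochaperones Bag1 and Stub1 were at 1.43 and 1.39 times their vehicle means in UMBO replicate 2. Members of these 4 lists therefore lay on both sides of the vehicle group, and none of them passed an unadjusted p of 0.05 in edgeR's test.

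Other lists were also above the vehicle mean in UMBO replicate 2, the mitochondrial one by little. Over both UMBO libraries the median log2 fold change for HSP90 and its cochaperones was 0.19. There 9 of 10 genes were higher, where 50.9% of all tested genes were. For the 8 subunits of the cytosolic chaperonin TRiC, which folds actin and tubulin, it was 0.48 with 8 of 8 higher. Fkbp4 and Ptges3, cochaperones of HSP90, were at 1.77 and 1.74 times their vehicle means in UMBO replicate 2 and at 1.01 and 1.06 times in UMBO replicate 1. Cct4 was at 105.9, 117.0 and 102.7 CPM with vehicle and at 121.4 and 202.2 CPM with UMBO. For 6 small heat shock genes the median was 0.72, for 10 mitochondrial chaperones and proteases 0.12 and for 12 chaperones of the endoplasmic reticulum 0.47, with 11 of 12 higher. Cct5, another TRiC subunit, the mitochondrial HSP70 Hspa9 and its J-domain partner Hscb were at 2.13, 1.79 and 2.31 times their vehicle means in UMBO replicate 2. Pdia4, a disulfide isomerase of the endoplasmic reticulum, was at 40.1, 61.1 and 50.7 CPM with vehicle and at 60.3 and 116.7 CPM with UMBO (unadjusted p = 0.0489 and adjusted p = 0.497 from edgeR). Serpinh1, the collagen chaperone HSP47, was at 18.6, 38.8 and 27.9 CPM with vehicle and at 40.8 and 122.3 CPM with UMBO (log2 fold change 1.52, unadjusted p = 0.0241 and adjusted p = 0.497 from edgeR). The small heat shock gene Hspb8, whose product works with that of Bag3, was at 12.9, 22.3 and 19.4 CPM with vehicle and at 27.6 and 41.0 CPM with UMBO. Hspb6, another small heat shock gene, was at 6.34, 10.7 and 7.08 CPM with vehicle and at 11.9 and 17.5 CPM with UMBO. Both UMBO libraries were thus above every vehicle library for Serpinh1, Hspb8 and Hspb6, as they were for 11.5% of all genes. The unadjusted p from edgeR was 0.0214 for Hspb8 and 0.0327 for Hspb6. In UMBO replicate 2 alone the list medians relative to the vehicle mean were 0.33 for HSP90, 0.8 for TRiC and 1.09 for small heat shock genes. They were 0.21 for the mitochondrial genes and 0.82 for the endoplasmic reticulum. Without UMBO replicate 2 the list medians were 0.04 for HSP90, 0.09 for TRiC, 0.18 for small heat shock genes, 0.00 for the mitochondrial genes and 0.06 for the endoplasmic reticulum. The log2 fold changes without it were 0.52 for Serpinh1, 0.60 for Hspb8, 0.56 for Hspb6 and 0.25 for Pdia4.

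**Figure D4:**
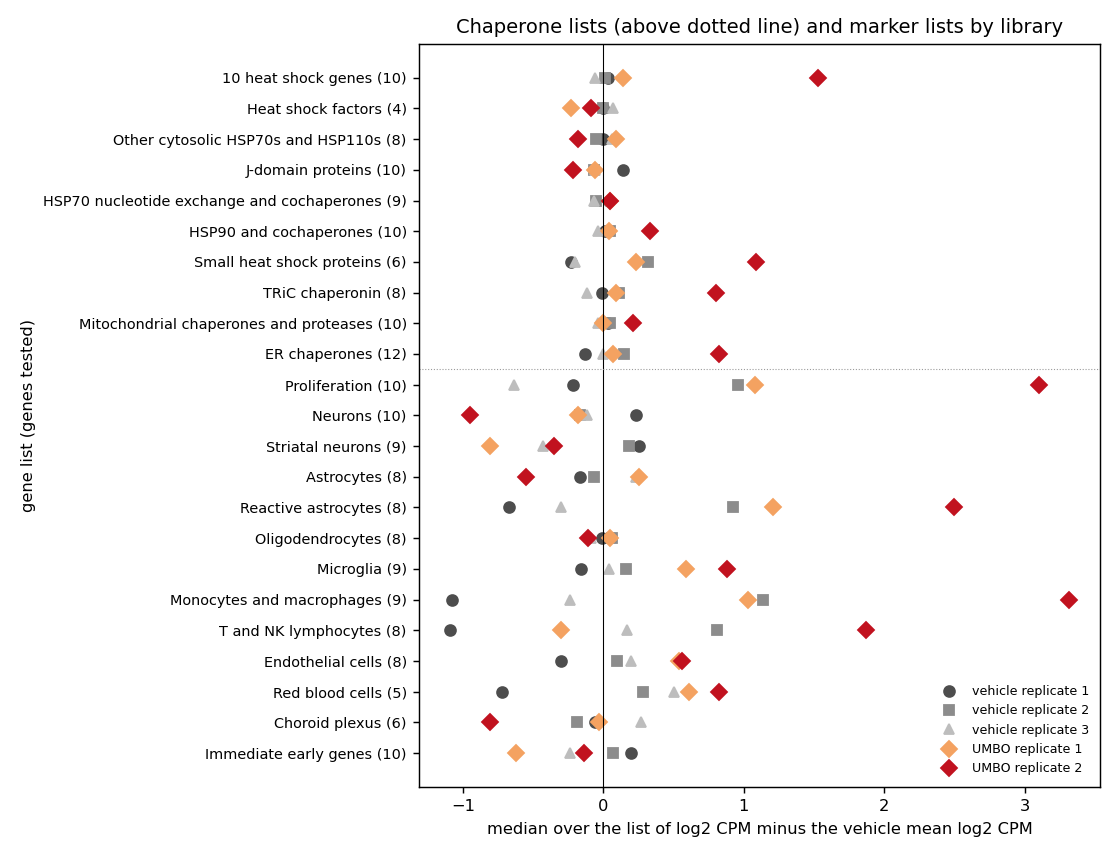
Median over each gene list of log2 CPM minus the vehicle mean log2 CPM (horizontal axis), for chaperone lists above the dotted line and marker lists below it, with the number of genes tested in brackets. In UMBO replicate 2 the 10 heat shock genes stand at 1.53, above the 9 other chaperone lists, and 4 marker lists stand farther out: monocytes and macrophages (3.32), proliferation (3.10), reactive astrocytes (2.50) and T and NK lymphocytes (1.87).

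Markers of several other cell types stood apart in the same library, and some in both UMBO libraries. The sum of 9 microglia markers was 348.9 to 502.9 CPM with vehicle and 681.0 and 820.3 CPM with UMBO. For 8 endothelial markers it was 170.9 to 234.8 CPM and 285.0 and 270.9 CPM. Of these genes 2 microglial and 1 endothelial had a negative log2 fold change, where 50.9% of all genes had a positive one. The summed level of 10 proliferation markers was 44.1, 99.6 and 30.3 CPM with vehicle, 102.7 CPM in UMBO replicate 1 and 443.4 CPM in UMBO replicate 2. All 10 were higher at an unadjusted p under 0.05 in edgeR's test, against 5.3% of all genes, and 0 passed the adjusted threshold. The sum of 9 monocyte and macrophage markers was 87.4, 364.0 and 121.7 CPM with vehicle and 361.3 and 1384 CPM with UMBO. Of these markers 9 of 9 were higher, against 50.9% of all genes. In edgeR's test 4 of them were higher at an unadjusted p under 0.05, against 5.3% of all genes, and 0 passed the adjusted threshold. Vim, which the list of reactive astrocytes also holds, made up 68.4, 249.8, 83.5, 278.4 and 943.4 CPM of these 5 sums, and the other 8 markers summed to 19.1, 114.2 and 38.2 CPM with vehicle and to 82.9 and 441.1 CPM with UMBO. Reactive astrocyte markers, 8 genes, summed to 322.8 to 886.2 CPM with vehicle and to 1839 and 2956 CPM with UMBO, and 8 markers of T and NK lymphocytes to 26.6 to 46.2 CPM with vehicle and to 28.9 and 74.2 CPM with UMBO. Ptprc made up 8.33, 16.5 and 15.2 CPM of the lymphocyte sums with vehicle and 16.4 and 31.0 CPM with UMBO. Cd4 went the other way, at 14.6, 14.0 and 7.31 CPM with vehicle and at 4.56 and 8.31 CPM with UMBO. The 10 neuronal markers summed to 6335 to 9516 CPM with vehicle, to 6650 CPM in UMBO replicate 1 and to 3333 CPM in UMBO replicate 2. Among these 10, Tubb3 and Nefm were not lowest in UMBO replicate 2. The 9 striatal neuron markers were lowest in UMBO replicate 1, with a sum of 804.0 CPM. Their sum was 1046 CPM in UMBO replicate 2 and 933.6 to 1521 CPM with vehicle. The library with the high heat shock genes was therefore also the one with the highest sums of these proliferation and myeloid markers. It also had the lowest sum of the 10 neuronal markers, though not of the striatal ones. The part of these differences in the levels of the heat shock genes was not tested. The proliferation and myeloid sums also set vehicle replicate 2 apart from vehicle replicates 1 and 3, and Hspb1, Bag3, Hspe1 and Hspd1 were highest in vehicle replicate 2 among the vehicle libraries, while Hspa1a, Hspa1b, Hsph1, Dnajb1, Hspa8 and Hsp90aa1 were highest in vehicle replicate 1.

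The genes whose pattern over the 5 libraries was most like that of a heat shock gene were found by the root mean square distance of centred log2 CPM, among 12712 genes with a mean of at least 5 CPM, the 10 heat shock genes aside. Hspa1b itself lay at a distance of 0.174 from Hspa1a. Nearest to Hspa1a among the candidates was Gm10827, a long noncoding RNA on chromosome 10 (GRCm38, 18235053 to 18246019), at a distance of 0.177. It was at 1.20, 1.31 and 1.45 CPM with vehicle, at 1.31 CPM in UMBO replicate 1 and at 27.2 CPM in UMBO replicate 2, a level in the last library of 20.6 times the vehicle mean. Next came Hmox1, which encodes the heme-degrading enzyme heme oxygenase, at a distance of 0.495, with 4.49, 10.5 and 5.17 CPM with vehicle and 10.5 and 108.9 CPM with UMBO. Cdt1, a factor that licenses DNA replication, followed at 0.580, with 2.23 to 4.96 CPM in the other 4 libraries and 24.5 CPM in UMBO replicate 2. Gm10827 and Cdt1 were under 5 CPM in 4 libraries and passed the minimum through UMBO replicate 2 alone, so the minimum itself favors genes that are high there. For Hspd1 the nearest were Hat1 (0.0482), Itgb3bp (0.0513) and Rrm1 (0.0516), for Hsp90aa1 they were Plk3 (0.0219), Trmt10c (0.0261) and Erich1 (0.0275), and for Hspa8 they were Aplf (0.0313), 4921524J17Rik (0.0348) and Hyls1 (0.0367). The distances of the Hsp90aa1 and Hspa8 sets are small because those genes varied little. The genes nearest to Hspd1 were at 2.29 to 2.33 times their vehicle means in UMBO replicate 2. With 5 libraries a likeness of pattern rests largely on UMBO replicate 2.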

How the data were processed

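Right hemispheres of 3 vehicle and 2 UMBO mice were compared, fewer mice than the study describes for this experiment, and the remainder was not analysed here. The authors mapped paired reads with STAR 2.7.2a to GRCm38 and deposited raw counts per gene, 1 table per library, without normalization. The annotation release and the strand setting are not given in the sources used here. Groups and replicate numbers came from the labels. That each library is a separate mouse is taken from the mice the study describes, since the labels give only a replicate number. No sample column was left unused (0). Symbols, exon lengths and positions came from GENCODE M21 (55480 of 55573 genes). Counts were scaled by TMM and tested with edgeR 4.0.16 in R 4.3.3 (filterByExpr, quasi-likelihood test, Benjamini-Hochberg adjustment over 23592 genes, threshold 0.05), without covariates. The common dispersion was 0.1181. DESeq2 1.42.0, which the authors used, was an alternative. No 2 libraries agreed within sampling noise (chi-square per gene 58.1 to 727.1, where noise gives about 1). The scripts were tested on simulated data. Shared windows of 101 bases were counted between GENCODE transcripts of each heat shock gene and of all other genes. Coding sequences were the longest open reading frames. Promoter windows of 300 bases are from RefSeq (GRCm38.p6).

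The 10 genes, the chaperone lists and the marker lists were chosen with earlier results of these data known. Every heat shock gene is named. From each chaperone list the rule takes the 2 genes with the smallest p. The 3 nearest genes in pattern are given for Hspa1a, Hsp90aa1, Hspa8 and Hspd1. Alternatives covered normalization, the filter on low counts, DESeq2, robust estimation, the replicate number as a block, the inducible pair summed, and each library left out.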

Additional observations from a re-analysis of the deposited data

How the results depend on the processing

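The direction of 9 of the 10 heat shock genes was the same under every alternative run; Dnajb1 turned to -0.19 without UMBO replicate 2 and was at 0.36 without UMBO replicate 1. The median log2 fold change over the 10 genes, 0.99, was 1.13 with library size as the scaling, which moved the median of all genes from 0.01 to 0.13, and 0.73 with Hspa1a and Hspa1b summed, since the list then holds 1 high value fewer. Without a filter on low counts 2954 of 40435 genes were higher and 1146 lower at an unadjusted p under 0.05. With the filter these counts were 1251 and 487 of 23592 genes, so the number of genes tested differs. Of the other chaperone genes 8 were higher and 1 lower without the filter, against 4 and 0 with it. DESeq2's Wald test gave 39 genes at an adjusted p under 0.05, 1 of them among the 10. At an unadjusted p under 0.05 it called 1970 genes higher and 768 lower. These were 4.87% and 1.9% of the 40434 genes it tested, against 5.3% and 2.06% in edgeR's main fit. With the replicate number as a block, 2337 genes passed the adjusted threshold in edgeR. In that fit vehicle replicate 3 is alone in its block and adds nothing to the comparison. Little is then left to estimate the spread from, so its counts carry little weight. At an unadjusted p under 0.05, 3396 genes (14.4%) were higher and 2738 (11.6%) lower. Of the 77 other chaperone genes 11 were higher and 3 lower, and the median of the 10 heat shock genes was 0.82. Under this block 4 of the 10 passed, against 6.05% of all genes that did so as higher (Hspb1 at 0.00408, Bag3 at 0.00784, Hspe1 at 0.0169 and Hspa1b at 0.0233). The labels do not say what the number marks. Deviations from the group means of the libraries with shared numbers had correlations of 0.453 and 0.760. With 2 UMBO libraries the deviations of one mirror those of the other, so these correlations are not independent. Pairing was not established. Apart from the shifts shown by their own construction, the cause of each shift was not tested.

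With 1 library left out, between 0 and 4543 genes passed the adjusted threshold, 194 to 5310 were higher and 102 to 4855 lower at an unadjusted p, and 0 to 31 other chaperone genes were higher and 0 to 6 lower. Among the 10 genes 0 to 6 passed the adjusted threshold and 0 to 7 were higher at an unadjusted p, and their median lay between 0.14 and 1.48. Among the fits without a vehicle library the highest counts came without vehicle replicate 2. Depth was not varied, and the UMBO group rests on 2 mice whose libraries differ this much.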
